A study of Mus musculus with 4 samples.

Results

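Npm1, nucleolin (Ncl) and the genes of the Arf-p53 axis were followed on 4 expression arrays of fibroblasts from mouse embryos, which are connective tissue cells kept in culture. The genes considered were Npm1, Npm3, Ncl, Trp53, Mdm2 and Cdkn2a, and every probe set that the platform's annotation gives to one of these 6 symbols alone was used. That gave 9 probe sets for 4 genes (2 for Npm1, 4 for Ncl, 2 for Mdm2 and 1 for Cdkn2a), of 22626 probe sets that are not manufacturer controls and 12393 named genes. The annotation used here lists no probe set for Npm3 or for Trp53, alone or together with other genes, so these 2 genes are not analysed here. A probe set is a group of short probes read out as 1 value per array.

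The 4 arrays were ribosome-bound (polysome) RNA labelled Npm1+/-, polysome RNA labelled Npm1+/+, total RNA labelled Npm1+/- and total RNA labelled Npm1+/+, 1 array each. All carry the strain label C57/BJ6. The Npm1+/- label stands for cells with 1 of 2 Npm1 copies inactivated and Npm1+/+ for cells with both copies. The series' design text speaks of an Npm1 deletion. How the allele was made, the passage and number of cultures, any pooling of embryos and whether the RNAs of a genotype came from the same dish are not given in the sources used here. The question put by the design is whether loss of Npm1 shifts which RNAs sit on ribosomes. With 1 array per group no test was possible, no p-value is given, and each value below is a single measurement.

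Nucleophosmin, the product of Npm1, is an abundant nucleolar chaperone that takes part in ribosome assembly and binds the tumour suppressor Arf in the nucleolus. Arf holds back Mdm2, the ubiquitin ligase that marks p53 for destruction, so more Arf means more p53 protein, and p53 in turn activates transcription of Mdm2. Nucleolin is another major nucleolar RNA-binding protein, with roles in ribosomal RNA transcription and processing. Cultured fibroblasts from mouse embryos are known for building up the products of Cdkn2a as they are passaged, which ends in senescence.

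Cdkn2a makes its 2 proteins from different transcription starts. Transcripts from the upstream start encode Arf, and those from the downstream start encode the cell cycle inhibitor p16Ink4a. In RefSeq the starts lie 12427 bases apart on the minus strand. The 100 bases before each start are shown because the only Cdkn2a probe set was read as 1 value for the gene, and which of the transcripts its probes match is not known here. The windows are chr4:89294620-89294719 and chr4:89282193-89282292 (GRCm38.p6, both 5′ to 3′ on the minus strand). Capitals mark GC boxes, the letters GGGCGG on either strand, a motif bound by Sp-family factors.
Arf start: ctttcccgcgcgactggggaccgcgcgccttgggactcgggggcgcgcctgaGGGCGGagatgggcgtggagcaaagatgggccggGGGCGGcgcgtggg
p16Ink4a start: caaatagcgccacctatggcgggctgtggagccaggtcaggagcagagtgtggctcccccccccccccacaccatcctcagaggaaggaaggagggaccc
The Arf window held 2 GC boxes and the p16Ink4a window 0. RefSeq promoters were found for 5 of the 6 genes, all but Npm1. The 5 include Npm3 and Trp53, which have no probe set here. Of the 6 windows of these 5 genes 4 held a GC box, against 24.7% of all 32851 windows of the same length. The E-box CACGTG was held by 0 of the 6, against 3.17%. A match describes the letters of the window and not a bound site.

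The values are log2 RMA values. RMA normalises the arrays to a common distribution, so a value is relative within its array, and the overall amount of RNA on ribosomes was not measured. The array medians lay between 7.47 and 7.59. The median of all values, 7.53, is called the floor. Detection calls were not used here, so a probe set below the floor is only known to be dim. To measure disagreement between probe sets, the difference at a gene's brightest probe set was set against that at its next brightest. This was done over the 2700 genes with both reaching the floor. Both were read on the same arrays, so spread between arrays or cultures is not contained in this measure. The SD of this disagreement was 0.28 between genotype labels in polysome RNA and 0.32 in total RNA. It was 0.24 between polysome and total RNA under the Npm1+/- label, and 0.28 under the Npm1+/+ label. The polysome minus total difference under the Npm1+/- label, minus that under the Npm1+/+ label, is named the association difference, and its SD was 0.22. All 11 fibroblast markers chosen reached the floor, whereas 0 of 6 epithelial, 1 of 6 endothelial, 2 of 5 muscle and 2 of 5 neural markers did. In bulk RNA, fewer cells of a type and less RNA per cell cannot be told apart.

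**Figure D1:**
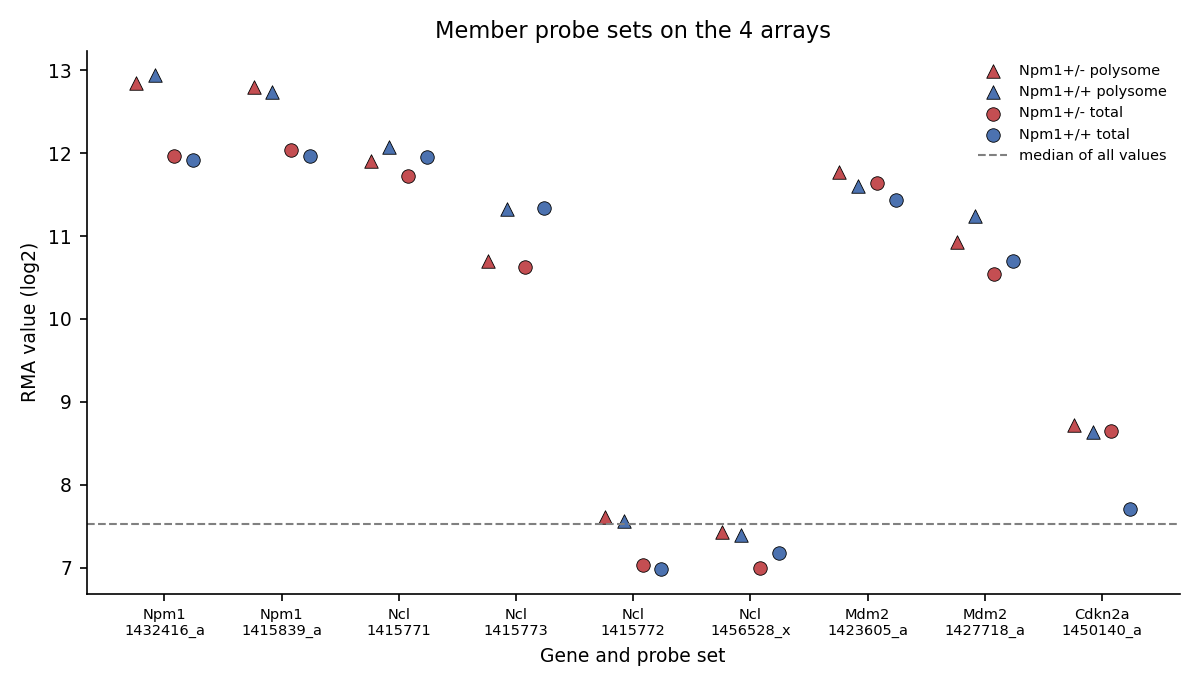
RMA values (log2, vertical axis) of the 9 probe sets of Npm1, Ncl, Mdm2 and Cdkn2a (horizontal axis). Each point is 1 array, red for Npm1+/- and blue for Npm1+/+, triangles for polysome and circles for total RNA; the dashed line is the median of all values, 7.53. Both Npm1 probe sets separate by RNA and not by genotype label, 1415773_at of Ncl separates by genotype label, and Cdkn2a is low in the total library labelled Npm1+/+.

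Npm1 was among the brightest genes on the arrays and did not differ between the genotype labels beyond the disagreement between probe sets. Probe set 1432416_a_at read 12.84 and 12.93 in the polysome libraries labelled Npm1+/- and Npm1+/+, and 11.96 and 11.91 in the total libraries labelled Npm1+/- and Npm1+/+. The difference between genotype labels was -0.09 in polysome RNA and 0.05 in total RNA. Probe set 1415839_a_at read 12.79 and 12.73 in the polysome libraries labelled Npm1+/- and Npm1+/+, and 12.03 and 11.96 in the total libraries labelled Npm1+/- and Npm1+/+. Its differences were 0.06 and 0.07 in polysome and total RNA. The sizes of these 4 differences were 0.16 to 0.32 times the SD of that disagreement, the probe set SD. Loss of 1 of 2 copies would give -1 on this scale if the message followed gene dose and the array read the message in proportion. Whether the arrays read probe sets this bright in proportion is not known here. After a loess trend on level was subtracted, the sign of the total RNA difference turned, to -0.08 at 1432416_a_at and -0.06 at 1415839_a_at, as did that of 1415839_a_at in polysome RNA, to -0.03. Quantile normalisation turned 1432416_a_at in total RNA as well, to -0.01. No source used here says whether the probes lie inside the inactivated stretch of the gene, and probes outside it need not report the loss. The libraries are therefore named by their labels throughout, and directions are between labels and not established for the genotypes.

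Npm1 was higher in polysome RNA than in total RNA under either genotype label, at either probe set. The difference at 1432416_a_at was 0.88 (1.84-fold) under the Npm1+/- label and 1.02 (2.03-fold) under the Npm1+/+ label. At 1415839_a_at it was 0.76 (1.69-fold) and 0.77 (1.71-fold) under the Npm1+/- and Npm1+/+ labels. These are 2.79 to 3.70 times the probe set SD. Only 149 of the 22626 probe sets, or 0.659%, had a larger difference than 1432416_a_at under the Npm1+/- label, and 104, or 0.46%, under the Npm1+/+ label. The order of the levels was the same at both probe sets as far as RNA goes, with the polysome libraries above the total libraries, and the neighbours within an RNA lay closer together than the probe set SD. The association difference of Npm1 was -0.14 and -0.01 at 1432416_a_at and 1415839_a_at, inside that SD.

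Markers of macrophages, cells that can be carried along in fibroblast cultures, moved with the RNA label too. Of the 14 markers, 9 reached the floor, and 6 were at least 2-fold higher in polysome than in total RNA under each genotype label, where 0.412% and 0.476% of all 12393 genes were under the Npm1+/- and Npm1+/+ labels. They were the complement genes C1qb (2.97 and 2.44 under the Npm1+/- and Npm1+/+ labels), C1qa (1.84 and 1.59) and C1qc (1.37 and 1.37), the protease gene Ctss (2.40 and 2.43), the lysozyme gene Lyz2 (2.25 and 2.23) and the receptor subunit gene Fcer1g (1.53 and 1.61). Apart from Lyz2 these 6 were below the floor in both total libraries, so they reached it only through polysome RNA. The summed unlogged level of the 14 markers was 4178 and 3196 in the polysome libraries labelled Npm1+/- and Npm1+/+, against 1663 and 1373 in the total libraries labelled Npm1+/- and Npm1+/+. The median difference over the 14 was 0.57 and 0.66 under the Npm1+/- and Npm1+/+ labels, with 11 and 13 of the 14 above 0. Among the other defining markers, Ptprc was below the floor on all 4 arrays at 4.53 to 4.87 and Adgre1 at 5.64 to 6.17. Their differences were -0.32 and -0.21 for Ptprc and 0.44 and 0.53 for Adgre1. Csf1r, at 7.62 to 7.84, showed differences of -0.22 and 0.05. In the other marker lists 2 genes passed 2-fold between RNAs, the fibroblast marker Dcn (1.16 and 1.37) and the neural marker Map2 (-1.26 and -1.38), which was below the floor on all 4 arrays. Whether macrophages were present, and any part of them in the Npm1 differences and in those of Cdkn2a, was not tested.

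Counted by a fixed size of 2-fold, a log2 difference of 1 either way, 1 of the 9 member probe sets passed in 1 of the 5 comparisons. It was 1432416_a_at of Npm1, higher in polysome RNA under the Npm1+/+ label, where 0.526% of all probe sets were at least 2-fold higher and 0.389% lower. Under the Npm1+/- label 0 of 9 passed, with 0.438% of all probe sets higher and 0.354% lower. Between genotype labels 0 of 9 passed in polysome RNA, where 0.133% of all probe sets were higher and 1.15% lower, and 0 of 9 in total RNA, where 0.261% were higher and 1.28% lower. For the association difference 0 of 9 passed, where 2 of the 22626 probe sets, 0.00884%, were at least 2-fold higher and 0 lower. At 1.5-fold 1 member probe set was lower in the polysome library labelled Npm1+/- than in that labelled Npm1+/+, 1415773_at of Ncl, with 4.61% of all probe sets. In total RNA 1 was higher in the library labelled Npm1+/-, that of Cdkn2a, with 4.7% of all probe sets, and 1 was lower, 1415773_at of Ncl again, with 4.89%. Between polysome and total RNA both Npm1 probe sets were 1.5-fold higher under the Npm1+/- label, where 3.34% of all probe sets were, and under the Npm1+/+ label these and Cdkn2a were, 3 of 9, where 4.27% of all were. For the association difference 1 of 9 was 1.5-fold lower, that of Cdkn2a, with 0.217% of all probe sets.

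**Figure D2:**
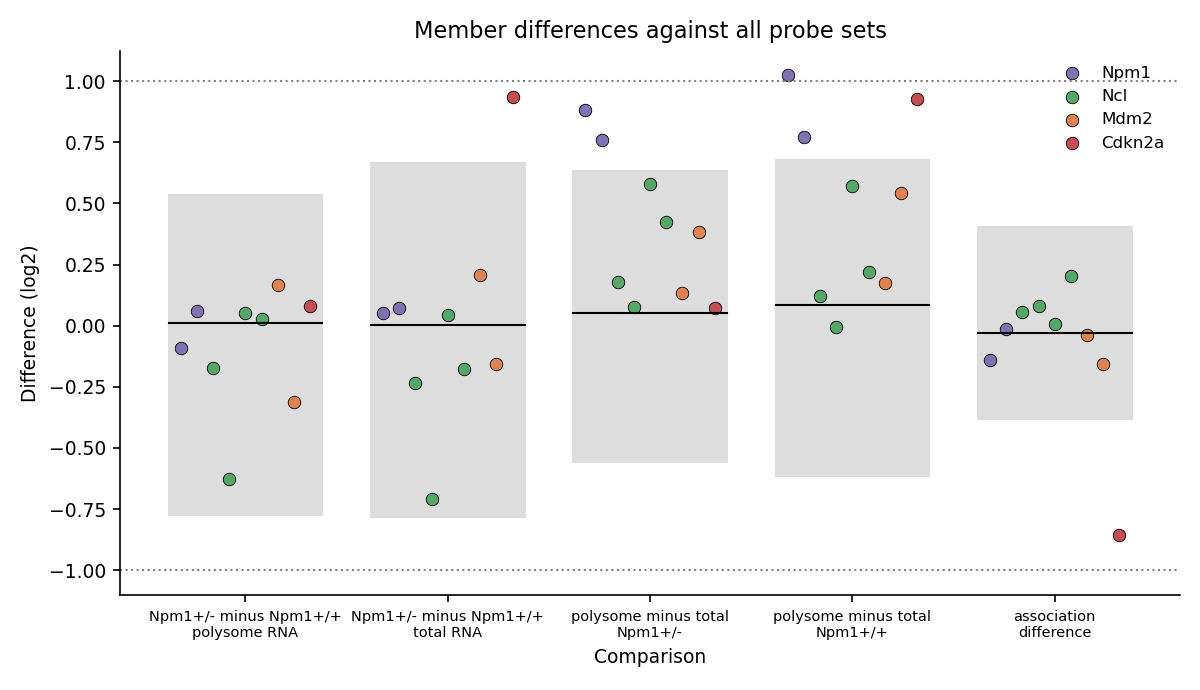
Log2 differences (vertical axis) of the 9 member probe sets in the 5 comparisons (horizontal axis), coloured by gene. Grey boxes span the middle 95% of all 22626 probe sets, black lines are their medians and dotted lines mark 2-fold. Npm1 lies above the box in both comparisons of polysome with total RNA, and Cdkn2a lies outside it in 3 comparisons, at 0.94, 0.93 and -0.85.

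Cdkn2a stood out by 1 array. Its probe set, 1450140_a_at, read 8.72 and 8.64 in the polysome libraries labelled Npm1+/- and Npm1+/+, and 8.65 and 7.71 in the total libraries labelled Npm1+/- and Npm1+/+. The total library labelled Npm1+/+ was thus the low one, 0.18 above the floor, and the other 3 libraries lay within 0.08 of each other. The difference between genotype labels was 0.08 in polysome RNA and 0.94 (1.91-fold higher in the library labelled Npm1+/-) in total RNA. The difference between polysome and total RNA was 0.07 under the Npm1+/- label and 0.93 (1.90-fold higher in polysome RNA) under the Npm1+/+ label. The association difference was -0.85, and only 5 of the 22626 probe sets had a lower one. It is 3.88 times the probe set SD, against 2.97 times for the total RNA difference. These 3 differences all contain the total library labelled Npm1+/+ and are not separate observations. Cdkn2a has no other probe set here, so there is no check within the gene. Under the 3 other scalings the association difference lay between -0.84 and -0.79 and the total RNA difference between 0.81 and 0.93.

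Other cyclin-dependent kinase inhibitors of the same family, which bind Cdk4 and Cdk6 and are named as relatives of Cdkn2a after their values were seen, showed smaller differences between the genotype labels. Cdkn2b, the neighbour of Cdkn2a that encodes p15Ink4b, read 11.58 and 11.34 in the polysome libraries labelled Npm1+/- and Npm1+/+, and 11.52 and 11.05 in the total libraries labelled Npm1+/- and Npm1+/+. Its differences were 0.24 in polysome and 0.47 in total RNA. Cdkn2d (p19Ink4d) was at 0.28 and 0.45 in polysome and total RNA, and Cdkn2c (p18Ink4c) at 0.00 and 0.25. Their association differences were -0.23, -0.17 and -0.24 for Cdkn2b, Cdkn2d and Cdkn2c, against a median of -0.07 over the 7179 genes that reached the floor. All 3 were therefore below that median, by less than the probe set SD of 0.22.

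The genes whose profile over the 4 arrays was closest to that of Npm1 and of Cdkn2a were found among the same 7179 genes. Likeness was the Euclidean distance between the 4 values after each gene's own mean was subtracted. Nearest to Npm1 were Plac8 (distance 0.07), Socs2 (0.10), which encodes a suppressor of cytokine signalling, and Chchd10 (0.14), which encodes a mitochondrial protein. Their differences between polysome and total RNA were 0.85, 0.93 and 0.71 under the Npm1+/- label and 1.12, 1.14 and 1.02 under the Npm1+/+ label. Socs2 read below the floor in both total libraries. Nearest to Cdkn2a were Rcc1l (0.19), Fabp3 (0.20), which encodes a fatty acid-binding protein, and Ap3s2 (0.22), which encodes an adaptor complex subunit. Their association differences were -0.65, -0.54 and -0.43 for Rcc1l, Fabp3 and Ap3s2, smaller in size than that of Cdkn2a, and the total library labelled Npm1+/+ was the lowest of the 4 for each of these 3 genes. Rcc1l read 7.30 there, below the floor. With only 4 arrays many genes look alike. Of 7178 genes, 382 correlated with Npm1 and 426 with Cdkn2a at a Pearson r of 0.95 or more.

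**Figure D3:**
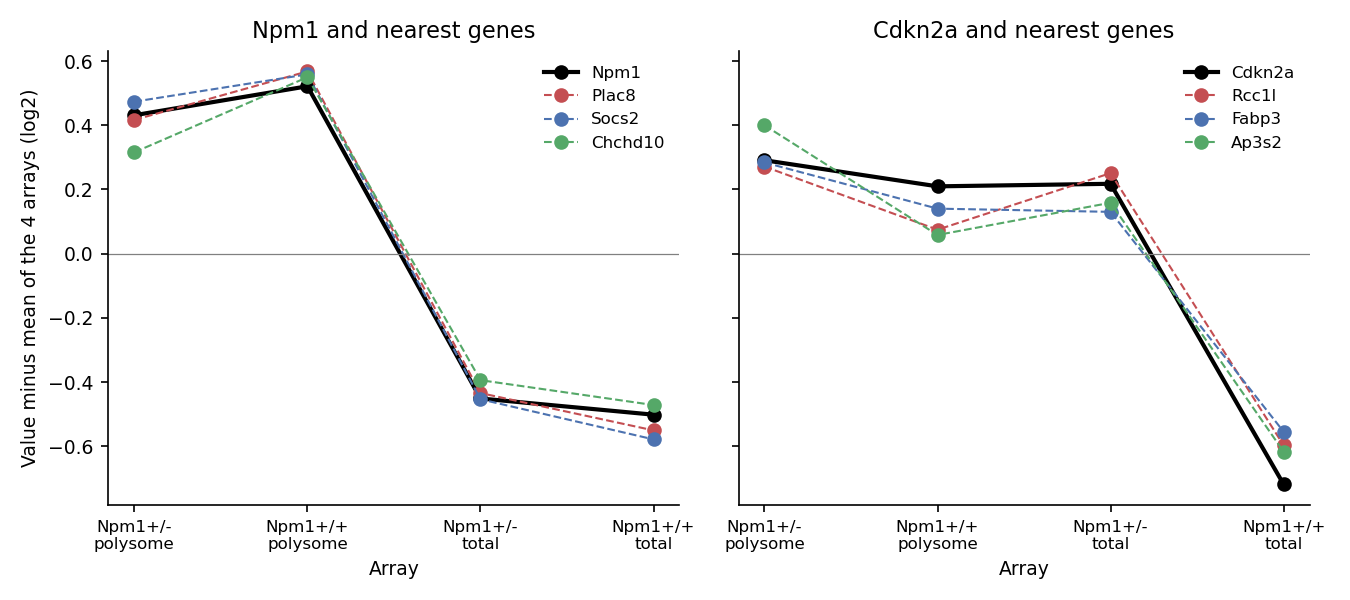
Values minus the gene's mean over the 4 arrays (log2, vertical axis) on each array (horizontal axis) for Npm1 with its 3 nearest genes (left) and Cdkn2a with its 3 nearest genes (right). Npm1 and its neighbours are high on both polysome arrays, and Cdkn2a and its neighbours are low on the total array labelled Npm1+/+.

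Nucleolin gave different answers at its 4 probe sets. The brightest, 1415771_at, read 11.90 and 12.08 in the polysome libraries labelled Npm1+/- and Npm1+/+, and 11.72 and 11.96 in the total libraries labelled Npm1+/- and Npm1+/+. It was lower by less than the probe set SD in the libraries labelled Npm1+/-, at -0.17 in polysome and -0.23 in total RNA. The next, 1415773_at, read 10.70 and 11.33 in the polysome libraries labelled Npm1+/- and Npm1+/+, and 10.63 and 11.33 in the total libraries labelled Npm1+/- and Npm1+/+. Its differences, -0.63 (1.54-fold lower) in polysome RNA and -0.71 (1.63-fold lower) in total RNA, were 2.22 and 2.24 times that SD. Of all probe sets, 4.05% and 3.19% were lower still in polysome and total RNA. The span between the Ncl probe sets was 0.68 in polysome and 0.75 in total RNA, more than the difference of any single one.

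The other Ncl probe sets were dim. Probe set 1415772_at read 7.61 and 7.56 in the polysome libraries labelled Npm1+/- and Npm1+/+, just above the floor, and 7.03 and 6.99 in the total libraries labelled Npm1+/- and Npm1+/+, below it. Between genotype labels it was at 0.05 in polysome and 0.04 in total RNA. Probe set 1456528_x_at, of the kind that can cross-hybridise, was below the floor on all 4 arrays, at 7.43 or less, with differences between genotype labels of 0.03 in polysome and -0.18 in total RNA. Between polysome and total RNA the bright probe sets 1415771_at and 1415773_at were at 0.18 and 0.08 under the Npm1+/- label and at 0.12 and -0.01 under the Npm1+/+ label, all inside the SD. The dim 1415772_at was at 0.58 and 0.57 under the Npm1+/- and Npm1+/+ labels, or 2.40 and 2.07 times the SD. The dim 1456528_x_at was at 0.43 and 0.22 under the Npm1+/- and Npm1+/+ labels. Npm1 was therefore higher in polysome RNA by more than the bright Ncl probe sets in the same libraries, although values of different probe sets cannot be compared as levels.

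The Mdm2 probe sets pointed in opposite directions between the genotype labels. Probe set 1423605_a_at read 11.77 and 11.61 in the polysome libraries labelled Npm1+/- and Npm1+/+, and 11.64 and 11.43 in the total libraries labelled Npm1+/- and Npm1+/+. It was higher in the libraries labelled Npm1+/-, by 0.17 in polysome and 0.21 in total RNA. Probe set 1427718_a_at read 10.93 and 11.24 in the polysome libraries labelled Npm1+/- and Npm1+/+, and 10.55 and 10.70 in the total libraries labelled Npm1+/- and Npm1+/+. It was lower in the libraries labelled Npm1+/-, at -0.31 in polysome and -0.15 in total RNA. The mean of the probe sets gave a difference of -0.07 in polysome and 0.03 in total RNA, so no direction can be given for the gene. In polysome against total RNA both were above 0. The difference was 0.13 and 0.38 under the Npm1+/- label, at 1423605_a_at and 1427718_a_at, and 0.17 and 0.54 under the Npm1+/+ label. Only the values of 1427718_a_at exceeded the probe set SD.

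The surrounding pathway was described through gene lists, with 1 probe set per gene, the one of highest mean level, and over genes that reached the floor. Of 19 listed p53 regulators 16 had a probe set and 12 reached the floor. Between genotype labels 0 of the 12 passed 2-fold, where 1.25% of all 7179 genes did in polysome and 1.73% in total RNA, and their median was 0.05 in polysome and 0.15 in total RNA, against 0.11 and 0.19 over all 7179 genes. The loess trend took these last medians to 0.02 and 0.03, so list medians are read against them, and took those of the 12 to -0.05 and 0.02. Hipk2, a kinase that phosphorylates p53, was the highest at 0.89 and 0.63 in polysome and total RNA, and at 0.43 and 0.47, 0.64 and 0.54, and -0.02 and 0.02 at its 3 other probe sets above the floor. The lowest were Atr, a DNA damage kinase (-0.71 and -0.38), which reached the floor only in the polysome library labelled Npm1+/+, and Trp53bp1, a repair protein that binds p53 (-0.52 and -0.45). Mdm4 (0.53 and 0.20) reached the floor only in the polysome library labelled Npm1+/-, and Crebbp (0.25 and 0.34) only in the libraries labelled Npm1+/-. The places of Atr, Mdm4 and Crebbp among the 12 thus rest on the label where each was high. Of 21 genes that regulate or bind Arf or belong to the family of p16Ink4a, 18 reached the floor and 0 passed 2-fold, against the same shares of all genes. Their medians were 0.07 and 0.15, and both turned to -0.01 with the loess trend. Trip12, a ubiquitin ligase for Arf, was at -0.52 and -0.62 at the brightest of its 5 probe sets. The others were at -0.40 and -0.31, -0.34 and -0.50, -1.43 and -1.48, and -0.39 and -0.31. Ddx5, an RNA helicase, was at -0.64 and -0.64.

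Genes on which p16Ink4a and its relatives act, the cyclins D, their kinases and the retinoblastoma family, had a median of 0.25 in polysome and 0.41 in total RNA over the 6 of 8 that reached the floor, and of 0.14 and 0.28 with the loess trend. At the probe set of highest mean level all 6 were above 0 in either RNA. By the same measure 4516 and 4744 of all 7179 genes were above 0 in polysome and total RNA. The retinoblastoma relative Rbl2 was at 0.50 and 0.84, but it reached the floor only in the libraries labelled Npm1+/-, so its place in this count rests on the label where it was high. Cdk6, the partner kinase of cyclins D, was at 0.86 and 1.18, but it read between 5.57 and 6.90, below the floor on all 4 arrays, which leaves that fold open to error in dim signal. The 7 probe sets of the cyclin D gene Ccnd2 disagreed. They ran from -0.44 to 1.11 in polysome and from -0.35 to 1.14 in total RNA, with the brightest at 0.34 and 0.46.

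Ribosomal and nucleolar proteins reported to bind or regulate Mdm2 or p53 had the lowest medians of the 6 lists between genotype labels. Of 15 listed, 11 had a probe set and all 11 reached the floor, with a median of -0.33 in polysome and -0.27 in total RNA and 9 of 11 below 0 in each, where 2631 and 2415 of all 7179 genes were below 0 in polysome and total RNA. The medians lay between -0.39 and -0.24 in polysome RNA and between -0.35 and -0.24 in total RNA under the other scalings. Rps27, a small-subunit protein, was at -1.07 and -0.99, the only gene of the 11 past 2-fold, in polysome RNA, where 1.25% of all genes were, and it read 7.42 in the polysome and 7.63 in the total library labelled Npm1+/-, next to the floor. Mybbp1a, a nucleolar protein that binds p53, was at -0.95 and -0.77, and at -1.58 and -1.57 at its other probe set. Nucleolar partners of Npm1 and Ncl had medians of 0.03 and 0.06 over the 17 of 20 that reached the floor, turning to -0.10 and -0.09 with the loess trend and to -0.01 and -0.02 with quantile normalisation, and with the RNA polymerase I subunit gene Polr1a at -0.94 and -0.70 and the ribosome assembly gene Surf6 at 0.58 and 0.79.

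Of 32 listed p53 target genes 28 had a probe set and 24 reached the floor. Their median was 0.29 in polysome RNA, against 0.11 over all 7179 genes, and 0.23 in total RNA, against 0.19, with 0 of 24 past 2-fold between genotype labels, where 1.25% and 1.73% of all genes were. After the loess trend was subtracted the medians were 0.17 and 0.06, against 0.02 and 0.03. In polysome RNA 16 of the 24 were above 0 and 8 below, where 4516 of all 7179 genes were above 0. In total RNA 19 were above 0 and 4 below, where 4744 of all were above 0. The highest were Zmat3, an RNA-binding protein gene (0.69 and 0.77 in polysome and total RNA), Rrm2b, a ribonucleotide reductase subunit gene (0.61 and 0.53), and Dusp14, a phosphatase gene (0.43 and 0.75). Cdkn1a, the p53 target that encodes the kinase inhibitor p21, was at 0.42 and 0.60. At the probe set of highest mean level the lowest of the 24 were Tap1 (-0.55 and -0.33) and Polk (-0.30 and -0.38). Ccng1, a further target, has 3 probe sets of nearly equal mean level, 12.21, 12.20 and 12.13. The brightest, which was counted, was at -0.02 and -0.20. The others were at -0.77 and -0.68 and at -0.31 and -0.29. Perp, an apoptosis effector gene, was the only one of the 24 targets past 2-fold between RNAs, where 0.766% and 0.919% of all genes were under the Npm1+/- and Npm1+/+ labels, at -1.23 and -1.45 in polysome against total RNA under the Npm1+/- and Npm1+/+ labels. Cdkn1a was named after its values were seen, because it is the best known target of the axis. Tap1, Polk and Ccng1 were likewise named afterwards, to give the other direction.

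**Figure D4:**
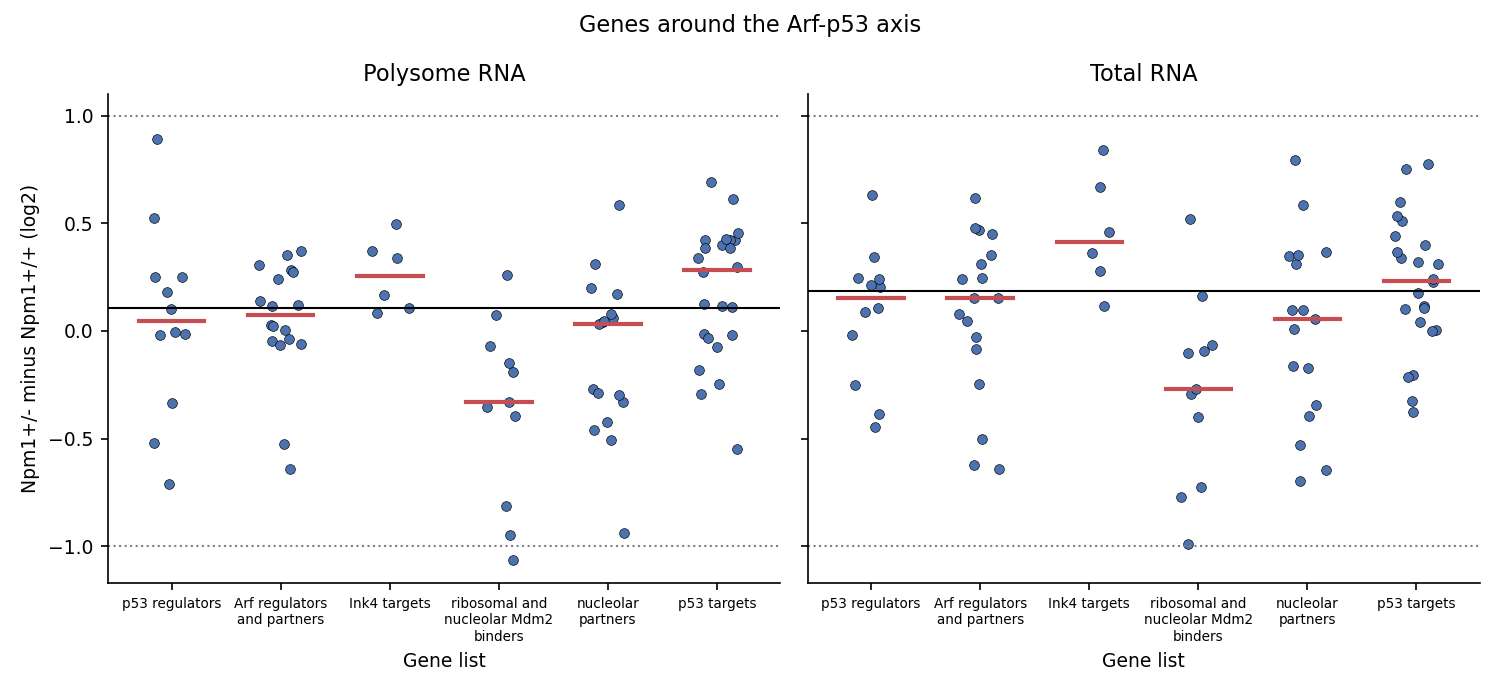
Differences between the libraries labelled Npm1+/- and Npm1+/+ (log2, vertical axis) for genes of 6 lists (horizontal axis) in polysome RNA (left) and total RNA (right). Each point is 1 gene that reached the floor, red bars are list medians, the black line is the median of all 7179 genes (0.11 in polysome and 0.19 in total RNA) and dotted lines mark 2-fold. The Mdm2 binders have the lowest medians, -0.33 and -0.27.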

How the data were processed

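The deposited values are log2 expression levels of 22690 probe sets, 64 of them manufacturer controls, on each array. Per the submitters' processing notes, the authors used RMA with R 3.4.3 and affy 1.56.0. Settings, chip definition and genome build are not given in the sources used here. Probe sets were named from the platform's annotation where it gives 1 symbol (20380 probe sets; 691 have several). Log2 differences were taken with Python 3.11.15, pandas 2.3.3 and numpy 2.4.6, and the loess trend (span 0.3) with statsmodels 0.14.6. With 1 array per group no test was made, and precision is limited by the number of arrays. The arithmetic was checked on simulated arrays with set differences added. This check carries no information on the spread between real arrays. Sequences are from RefSeq, GRCm38.p6.

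All probe sets of the members are given. From each pathway list the text names genes past 2-fold and the 2 with the largest difference between genotype labels in each RNA; marker lists, a check of cell type, are given by counts, genes past 2-fold and a few defining markers; and, for members spanning at least 1 log2 unit, the 3 nearest genes. The members and lists were chosen with earlier results of these data known. Alternatives were the mean of a gene's probe sets, leaving out probe sets ending _x_at or _s_at, floors at the median and the 75th percentile of all values (7.53 and 9.33), centring, quantile normalisation, loess, and thresholds of 1.5-fold and 3-fold.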

Additional observations from a re-analysis of the deposited data

Results flagged for a closer look

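The 9 member probe sets and the main probe sets of 15 named pathway genes were checked. For 6 of these 24 the same contrast had opposite signs in the 2 RNAs or under the 2 genotype labels. The rule has no size limit, so small differences also meet it, and the share of all probe sets that meet it was not counted. The 6 are therefore listed only and not read as unusual. With 1 array per group the difference was not tested. The Npm1 probe set 1432416_a_at was at -0.09 between genotype labels in polysome RNA and 0.05 in total RNA, an association difference of -0.14. The Ncl probe set 1456528_x_at was at 0.03 and -0.18 in polysome and total RNA, with an association difference of 0.205. Between polysome and total RNA, 1415773_at of Ncl was at 0.08 under the Npm1+/- label and -0.01 under the Npm1+/+ label (association difference 0.081). In the same contrast Hipk2 was at 0.13 and -0.14 (0.26), Surf6 at -0.06 and 0.15 (-0.21) and Dusp14 at -0.26 and 0.06 (-0.33).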

How the results depend on the processing

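No paired analysis was possible because each group has 1 array and no comparison has a test. At 1.5-fold in place of 2-fold the number of member probe sets past the limit was 1 in place of 0 between genotype labels in polysome RNA, 2 in place of 0 in total RNA, 2 in place of 0 between RNAs under the Npm1+/- label, 3 in place of 1 under the Npm1+/+ label and 1 in place of 0 for the association difference. The 1 call at 2-fold, Npm1 under the Npm1+/+ label, was lost (0 members) when the probe sets of a gene were averaged, with centring, quantile normalisation or the loess trend, and at 3-fold; its difference lay between 0.90 and 1.02 under the alternatives. Of 145 values under an alternative, 135 moved by less than the probe set SD or kept their count, and 10 did not. The 135 include values that could not move. Leaving out probe sets ending _x_at or _s_at kept the brightest probe set of every member gene in place. Averaging changed nothing for Cdkn2a, which has 1 probe set. Signs turned for Npm1 between genotype labels in total RNA (2 of 5 alternatives, down to -0.08), Mdm2 in polysome RNA (1 of 5, -0.07) and for the association difference (2 of 5, up to 0.05), and Cdkn2a between RNAs under the Npm1+/- label (3 of 5, down to -0.03), all inside that SD. For Cdkn2a the 3 were centring, quantile normalisation and loess, and the other settings could not change its value. The cause of these turns was not tested. Signal over background is unknown for the dim Ncl probe sets.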
